A study of Mus musculus with 4 samples.

Results

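The epidermal growth factor (EGF) family was followed here as 10 genes, taken by their symbols out of the 18298 genes listed in any of the 4 samples. The 10 were 6 ligand genes (Hbegf, Areg, Ereg, Tgfa, Btc and Nrg1), 3 receptor genes (Egfr, Erbb2 and Erbb3) and the feedback inhibitor Errfi1. RNA sequencing was used to compare cultured primary rib chondrocytes, the cells that build cartilage, from E18.5 embryos that had lost the desumoylase gene Senp6 with those from embryos that had not. The Mut group (Dermo1-Cre;Senp6f/f, n = 2) and the WT group (Senp6f/f without Cre, n = 2) both carried the floxed Senp6 allele on a C57BL/6 background and were taken at passage 1. Dermo1-Cre is driven from the Twist2 (Dermo1) locus in skeletal progenitors, so any cell in the culture without Cre activity would keep Senp6. The labels do not say how many embryos went into each culture, and p-values measure only the spread between these samples.

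EGF family ligands are made as membrane-anchored precursors, and proteases of the ADAM family release them from the cell surface. Hbegf, Areg, Ereg, Tgfa and Btc encode ligands of the EGF receptor, some of which also bind ERBB4, while neuregulin 1 (Nrg1) binds ERBB3 and ERBB4. Ligand binding pairs the receptors and activates the RAS-ERK cascade, and in cartilage EGF receptor signalling is known for its effects on chondrocyte proliferation, survival and matrix turnover. ERBB2 has no known ligand and serves as a partner, ERBB3 has little kinase activity of its own, and the protein of Errfi1 (also known as MIG6) binds and inhibits the EGF receptor.

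Ligand transcripts were higher in the Mut cultures for 5 of the 6 ligand genes, and the 2 main receptors were near their WT level. By the ratio of the mean RPKM (the read count scaled by gene length and by the library's reads on genes), Areg was 4.57 times, Ereg 3.96 times, Btc 2.51 times, Hbegf 2.35 times and Nrg1 1.77 times the WT level. Erbb3 was 3.26 times and Errfi1 1.49 times the WT level, whereas Egfr was at 0.845 and Erbb2 at 0.947 of it. None of the 10 genes passed an adjusted p of 0.05 in the edgeR quasi-likelihood test over 14123 genes with at least 10 reads in at least 2 samples. In that test 0 genes passed in either direction (0.0% of the genes tested), 1312 were higher and 887 lower at an unadjusted p under 0.05, and 6 of the 10 members were among the higher ones. The count of members past the adjusted threshold was 2 with DESeq2 (Hbegf, adjusted p = 0.016, and Nrg1, adjusted p = 0.0267) and 0 with limma on the RPKM. DESeq2 placed 3.07% of all genes tested higher. With 1 sample left out of the edgeR test the result turned on which sample it was. Without WT replicate 1, 3 members (Hbegf, Nrg1 and Erbb3) and 3.55% of the genes tested were called higher. Without WT replicate 2 these were 4 members (Hbegf, Ereg, Nrg1 and Errfi1) and 9.25%, without Mut replicate 1 they were Areg and 1.98%, and without Mut replicate 2 they were 0 members and 0.496%.

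In 7 of the 10 members the RPKM of both Mut samples lay above both WT samples, and in 2 it lay below. Over all genes tested these shares were 28.3% above and 19.2% below. With a log2 fold change of at least 1 as well, 5 members (Hbegf, Areg, Ereg, Btc and Erbb3) and 5.59% of the genes tested were higher, and 0 members and 2.36% of the genes tested were lower. The median log2 fold change was 0.99 over the members and 0.0097 over all genes tested.

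**Figure D1:**
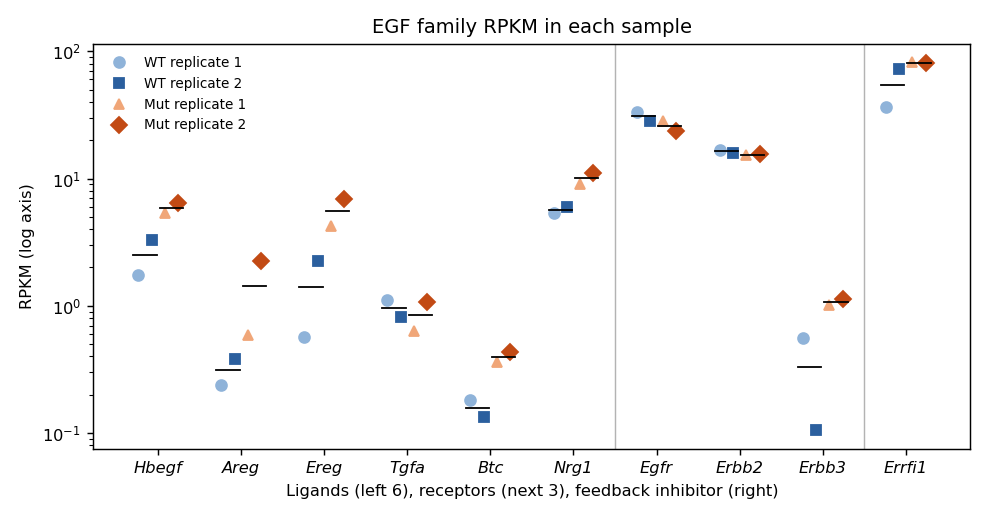
RPKM (log axis) of the 10 EGF family genes in each of the 4 samples, with the group means as short black lines. Both Mut samples lie above both WT samples for Hbegf, Areg, Ereg, Btc, Nrg1, Erbb3 and Errfi1, while Tgfa overlaps and Egfr and Erbb2 are slightly lower.

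In units of 1000 reads on genes, the libraries held 21016 and 26139 in the WT samples and 30995 and 28247 in the Mut samples. Senp6 had an RPKM of 10.8 and 18.0 in the WT and 12.0 and 8.07 in the Mut samples, so the groups overlapped, and the gene-level counts still take in reads outside the floxed exons. Xist was read 11354 times in Mut replicate 2 and at most 5 times elsewhere, so the sex of the embryos differed within the Mut group. All 7 chondrocyte markers were lower in both Mut samples, as were 19.2% of all genes tested. Their summed RPKM was 786 and 796 in the WT and 395 and 522 in the Mut samples. The 3 osteoblast markers tested (Ibsp, Alpl and Sp7) were lower in both Mut samples as well, with a summed RPKM of the list of 69.8 to 172 in the WT and 19.1 to 40.5 in the Mut samples. Of 5 fibroblast and perichondrium genes, Col1a1, Col3a1 and Dpt were lower in both Mut samples, and Col1a1 had an RPKM of 7250 and 4960 in the WT and 4830 and 3310 in the Mut samples. The part of these shifts in the levels of the EGF family was not tested. In bulk RNA, fewer cells of a type and less RNA per cell cannot be told apart.

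Of the ligand genes, 3 lie close together with the further ligand gene Epgn on chromosome 5 of GRCm38 (GENCODE M21), within 376 kb from 91027464 to 91402994. Ereg spans 91074622 to 91093646 and Areg 91139599 to 91148432 on the forward strand, and Btc spans 91357261 to 91402994 on the reverse strand. The files give no coordinates, and the submitters' processing notes name mm9, so these positions describe the genes and not the alignment. Promoters of RefSeq (GRCm38.p6, 250 bases before to 50 after the transcription start) were found for 6 of the 10 members and were searched on both strands for 5 motifs: the AP-1 motif TGANTCA, the CRE motif TGACGTCA, the TATA motif TATAAA, the TEAD motif GGAATG and the CArG box. The promoters of Areg and Errfi1 are shown because each held a CRE and a TATA motif, and that of Btc because it is a neighbour of Areg and held none of the 5. The capitals mark the motif matches.

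Areg, chr5:91139349-91139648, forward strand: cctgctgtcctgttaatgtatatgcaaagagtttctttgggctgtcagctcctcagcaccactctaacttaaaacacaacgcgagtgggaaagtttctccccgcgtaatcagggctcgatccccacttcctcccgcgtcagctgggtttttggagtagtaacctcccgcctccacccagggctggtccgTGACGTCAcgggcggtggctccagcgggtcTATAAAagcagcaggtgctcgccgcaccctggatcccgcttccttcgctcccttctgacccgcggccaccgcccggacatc
Errfi1, downstream of 2 start sites, chr4:150854820-150855119, forward strand: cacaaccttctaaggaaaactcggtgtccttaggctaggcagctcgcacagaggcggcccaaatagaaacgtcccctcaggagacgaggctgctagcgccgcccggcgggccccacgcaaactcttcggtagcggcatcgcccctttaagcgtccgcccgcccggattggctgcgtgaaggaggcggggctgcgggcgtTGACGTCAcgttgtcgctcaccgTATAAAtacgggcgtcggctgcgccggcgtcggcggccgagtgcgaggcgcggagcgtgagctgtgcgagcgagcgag
Btc, chr5:91402945-91403244, reverse strand: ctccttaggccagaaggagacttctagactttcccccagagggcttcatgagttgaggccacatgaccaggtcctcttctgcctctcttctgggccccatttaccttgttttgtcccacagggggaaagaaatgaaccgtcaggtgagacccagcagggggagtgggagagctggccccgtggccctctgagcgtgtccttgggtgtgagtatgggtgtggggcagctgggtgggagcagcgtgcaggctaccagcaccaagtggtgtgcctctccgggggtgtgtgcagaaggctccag

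In the Areg promoter the CRE motif began at -61 and the TATA motif at -31 from the start site, and in the Errfi1 promoter they began at -51 and -28. The CRE motif was in 1.79% and the TATA motif in 13.6% of the 32851 promoters searched, and 0.17% held both. These 2 promoters were picked for holding the pair, so that share is no test of enrichment. Of the 7 member promoters searched, the others held neither motif. The AP-1 motif, found in 7.81% of those promoters, and the CArG box, found in 1.63%, were in none of the member promoters searched. Those of Hbegf, Ereg, Nrg1 and Erbb3 were not searched. The TEAD motif, in 14.7% of the promoters searched, was at the Erbb2 promoter and at the upstream start of Errfi1. A match describes the letters of the sequence, and no binding was measured.

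Epiregulin (Ereg), a ligand of the EGF receptor and ERBB4 that is low in most resting cells, was read 49 and 242 times in WT replicates 1 and 2 and 541 and 804 times in Mut replicates 1 and 2. Its RPKM was 0.564 and 2.24 in the WT and 4.22 and 6.88 in the Mut samples. The groups did not overlap, but WT replicate 2 was 3.97 times WT replicate 1, a wider gap than that between WT replicate 2 and either Mut sample (1.89 and 3.07 times). Fitted to the counts, the log2 fold change was 1.94 ± 0.56 (± gives the standard error, SE, here and for all fold changes, edgeR adjusted p = 0.177). It was 1.28 without WT replicate 1 and 3.19 without WT replicate 2, where the edgeR adjusted p was 0.00555, the lowest over the alternatives, which reached 1.0.

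Amphiregulin (Areg), a heparin-binding ligand known from epithelial growth and tissue repair, was the lowest but one of the ligands in the WT cultures. It was read 6 and 12 times in the WT and 22 and 76 times in the Mut samples, an RPKM of 0.238, 0.383, 0.592 and 2.24 in turn. The exact 95% Poisson interval, which covers counting error only, was 0.198 to 0.669 in WT replicate 2 and 0.371 to 0.896 in Mut replicate 1, so these 2 samples could not be told apart at this depth. Mut replicate 2, with an interval of 1.77 to 2.81, stood above the other 3. Mut replicate 2 was also the sample with 11354 Xist reads, and the part of embryo sex in its Areg level was not tested. The log2 fold change of 2.10 ± 0.72 (SE, edgeR adjusted p = 0.234) was 0.89 without Mut replicate 2 and 2.77 without Mut replicate 1, where the edgeR adjusted p was 0.00964, the lowest over the alternatives, which reached 1.0.

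Heparin-binding EGF (Hbegf), a ligand of the EGF receptor and ERBB4, lies on chromosome 18 of GRCm38 from 36504927 to 36515805. It was read 87 and 206 times in the WT and 399 and 434 times in the Mut samples. Its RPKM was 1.73 and 3.29 in the WT and 5.38 and 6.42 in the Mut samples, with both Mut samples above both WT samples. The log2 fold change was 1.19 ± 0.30 (SE, edgeR adjusted p = 0.144), and over the 11 alternatives it lay between 0.82 and 1.67 with an adjusted p between 0.000654 and 0.316. WT replicate 1 was again the lower of the WT samples, with WT replicate 2 at 1.90 times its level.

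Neuregulin 1 (Nrg1), a ligand of ERBB3 and ERBB4 known from nerve, Schwann cell and heart development, was the most abundant ligand transcript per length in all 4 samples. It lies on chromosome 8 of GRCm38 from 31814551 to 32884029. The RPKM was 5.34 and 6.00 in the WT and 9.05 and 11.1 in the Mut samples, from 236 to 658 reads. The replicates lay close together, and the log2 fold change of 0.78 ± 0.17 (SE, edgeR adjusted p = 0.115) stayed between 0.66 and 0.91 over the 11 alternatives, with an adjusted p between 0.00969 and 0.732. GENCODE lists 12 coding transcripts of Nrg1, and the gene-level counts do not separate them.

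Betacellulin (Btc), which binds the EGF receptor and ERBB4, was near the limit of detection. It was read 11 and 10 times in the WT and 32 and 35 times in the Mut samples, an RPKM of 0.182, 0.133, 0.359 and 0.431 in turn. The groups did not overlap and the replicates were close, with a log2 fold change of 1.28 ± 0.44 (SE, edgeR adjusted p = 0.233). No alternative gave an adjusted p under 0.05 for Btc.

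Transforming growth factor alpha (Tgfa), known as a ligand made by articular chondrocytes, was the ligand whose groups overlapped. Its RPKM was 1.11 and 0.823 in the WT and 0.633 and 1.07 in the Mut samples. The log2 fold change was -0.23 ± 0.34 (SE, edgeR adjusted p = 0.804), and its sign turned with the sample left out, from -0.63 without Mut replicate 2 to 0.089 without Mut replicate 1.

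**Figure D2:**
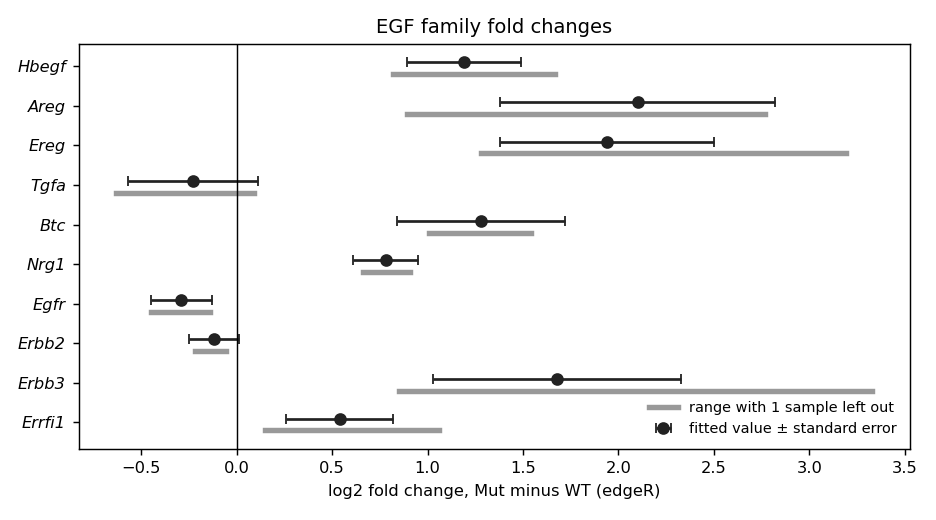
Fitted log2 fold change of the 10 genes, Mut minus WT, with its standard error (black) and the lowest and highest value when 1 of the 4 samples was left out (grey). The grey bars of Erbb3, from 0.85 to 3.33, and of Ereg, from 1.28 to 3.19, reach furthest, while that of Tgfa crosses 0.

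The ligand mixture was described by the share of each ligand in the summed RPKM of the 6. The sum was 9.17 and 12.9 in the WT and 20.2 and 28.1 in the Mut samples, a ratio of means of 2.19. With 2 samples against 2, the exact two-sided permutation test cannot give a p below 0.333, which it gave here. Nrg1 held 58.2% and 46.6% of the sum in the WT and 44.7% and 39.4% in the Mut samples. Its share was lower in both Mut samples than in either WT sample, while its own level was higher. Ereg held 6.15% and 17.4% in the WT and 20.9% and 24.5% in the Mut samples. The share of Tgfa was 12.1% and 6.39% in the WT against 3.13% and 3.81% in the Mut samples, and Tgfa was above Ereg in WT replicate 1 only. Areg held 7.98% in Mut replicate 2 and between 2.60% and 2.97% in the other 3 samples.

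**Figure D3:**
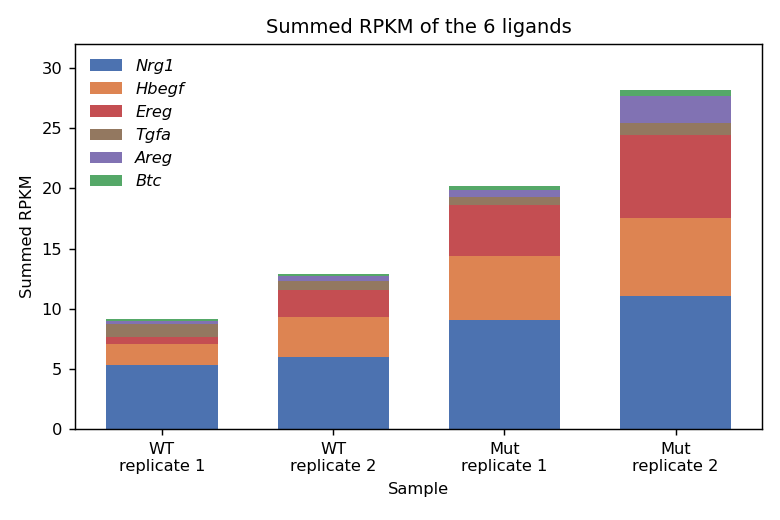
Summed RPKM of the 6 ligand genes in each sample, stacked by ligand from 0. The Mut samples reach 20.2 and 28.1 and the WT samples 9.17 and 12.9, and Nrg1, Hbegf and Ereg make up most of the height in the Mut samples.

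Egfr and Erbb2 transcripts differed less between the groups than those of most ligands. Egfr (GRCm38 chromosome 11, from 16752203 to 16918158) was at an RPKM of 33.1 and 28.3 in the WT and 28.1 and 23.8 in the Mut samples, from 4017 to 5203 reads. WT replicate 2 and Mut replicate 1 were nearly equal, and the log2 fold change was -0.29 ± 0.16 (SE, edgeR adjusted p = 0.463). Erbb2 (also on chromosome 11, from 98412470 to 98437716) was at 16.7 and 15.8 RPKM in the WT and 15.2 and 15.6 in the Mut samples, a log2 fold change of -0.12 ± 0.13 (SE, edgeR adjusted p = 0.705). The difference of Erbb2 was smaller than its standard error. Against Egfr, the summed RPKM of the 5 ligand genes of the EGF receptor was 0.116 and 0.243 in the WT and 0.399 and 0.717 in the Mut samples (exact two-sided permutation p = 0.333, the smallest possible).

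Erbb3, on chromosome 10 of GRCm38 from 128567523 to 128589652, was the lowest of the 3 receptors and the one with the widest spread. It was read 47 and 11 times in the WT and 126 and 130 times in the Mut samples. Its RPKM was 0.556 and 0.105 in the WT and 1.01 and 1.14 in the Mut samples, so the Mut samples were alike and the WT samples stood apart. The log2 fold change of 1.68 ± 0.65 (SE, edgeR adjusted p = 0.282) was 3.33 without WT replicate 1 (edgeR adjusted p = 0.00108) and 0.85 without WT replicate 2, and the adjusted p lay between 0.00108 and 0.921 over the 11 alternatives. Erbb3 transcripts made up 0.237% to 1.10% of the summed receptor RPKM in the WT and 2.28% and 2.83% in the Mut samples.

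Some markers of other cell types were higher together with Erbb3. Both Mut samples lay above both WT samples in 28.3% of all genes tested. Of 3 markers of neural crest and Schwann cells, in which Erbb3 is a known receptor, 2 (Sox10 and Foxd3) were higher in both Mut samples, S100b overlapped and none was at 0. Sox10 had an RPKM of 0.368 and 0.240 in the WT and 1.11 and 1.91 in the Mut samples, and the summed RPKM of the list, mostly S100b, was 7.70 to 8.27 in the WT and 7.12 to 13.8 in the Mut samples. Of 6 skeletal muscle genes, 4 (Myog, Myod1, Acta1 and Myh3) were higher in both Mut samples, none was at 0, and the summed RPKM was 18.7 to 61.8 in the WT and 91.7 to 108 in the Mut samples. The samples of Tnnt3 overlapped, as did those of Ckm, with an RPKM of 1.51 and 0.027 in the WT and 0.296 and 0.25 in the Mut samples. For Erbb3 as for Myog, Myod1 and Sox10, WT replicate 2 was the lowest sample. For S100b it was Mut replicate 1, with an RPKM of 5.43 against 7.4 in WT replicate 2. The part of these cells in the level of Erbb3 was not tested.

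**Figure D4:**
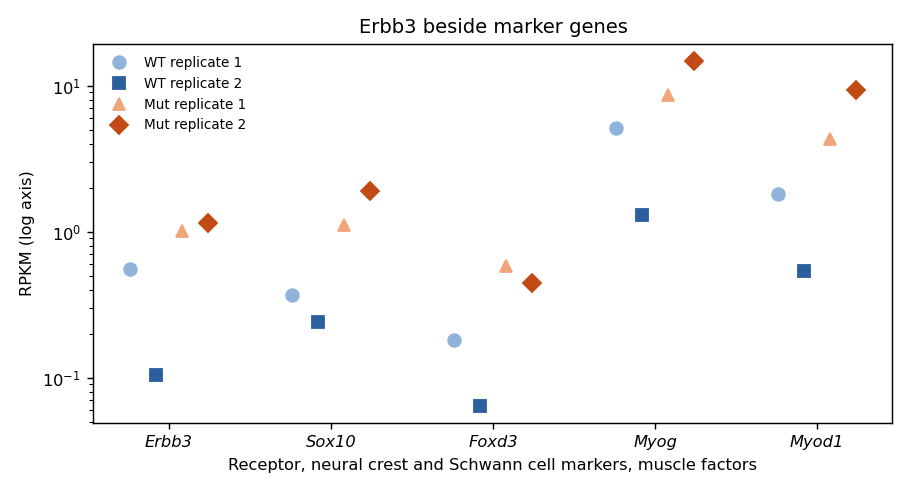
RPKM (log axis) of Erbb3 in each sample beside 2 markers of neural crest and Schwann cells (Sox10 and Foxd3) and 2 muscle transcription factors (Myog and Myod1). In all 5 genes WT replicate 2 is the lowest sample and both Mut samples lie above WT replicate 1. The markers shown are among those higher in both Mut samples. S100b, Tnnt3 and Ckm, whose samples overlapped, are left out, as are Acta1 and Myh3.

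Errfi1, on chromosome 4 of GRCm38 from 150853919 to 150868892, is induced by EGF receptor signalling and was the most abundant of the 10 genes per length in all 4 samples. The RPKM was 36.5 and 72.5 in the WT and 81.7 and 80.9 in the Mut samples. Both Mut samples were above both WT samples, but WT replicate 2 lay nearer to them than to WT replicate 1. The log2 fold change of 0.54 ± 0.28 (SE, edgeR adjusted p = 0.424) was 0.15 without WT replicate 1 and 1.06 without WT replicate 2 (edgeR adjusted p = 0.000353), so its size depended on which WT sample was kept. The adjusted p lay between 0.000353 and 1.0 over the 11 alternatives.

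By mean RPKM the WT order was Errfi1, Egfr, Erbb2, Nrg1, Hbegf, Ereg, Tgfa, Erbb3, Areg and Btc. In that order Hbegf and Ereg, Ereg and Tgfa, and Erbb3 and Areg were neighbours whose samples overlapped. In the Mut samples the first 6 places were the same genes, and Areg and Erbb3 stood before Tgfa, although the samples of Hbegf and Ereg, of Areg and Erbb3, and of Erbb3 and Tgfa overlapped.

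The remaining ERBB ligands and receptor were near or under the limit of detection in all 4 samples. Erbb4 was read at most 1 time and Nrg3 at most 1 time in a sample. Epgn, the chromosome 5 neighbour, was read 1 and 2 times in the WT and 4 and 11 times in the Mut samples, Nrg2 4 to 19 times and Nrg4 2 to 12 times. Egf itself was read 14 and 14 times in the WT and 8 and 12 times in the Mut samples, with a log2 fold change of -0.85 ± 0.52 (SE, edgeR adjusted p = 0.498). Of the receptors that bind Nrg1, Erbb3 was read at least 11 times in every sample, and Erbb4 was read 1 time in each of 2 samples and not in the other 2.

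Genes of the pathway were followed in 4 further lists. In these and the short list of ligands and receptor, 58 of 65 genes were tested and 0 passed an adjusted p of 0.05 with edgeR. With DESeq2, 8 passed, all higher, where 3.07% of all genes tested were called higher. The 17 ERK output genes are known for transcription in response to ERK activity and include its own inhibitors. Of them, 14 were higher and 0 lower in both Mut samples, against 28.3% and 19.2% of all genes tested. Their median log2 fold change was 0.59. Ier3, an early response gene, had an RPKM of 14.5 and 21.9 in the WT and 37.3 and 54.9 in the Mut samples, a log2 fold change of 1.30 ± 0.25 (SE, edgeR adjusted p = 0.0943). Dusp6, a phosphatase that inactivates ERK, had an RPKM of 6.59 and 8.32 in the WT and 13.2 and 17.7 in the Mut samples, a log2 fold change of 1.0 ± 0.19 (SE, edgeR adjusted p = 0.0917). ERK also receives signals from receptors outside the EGF family. No ERK activity was measured, and the cause of these levels was not tested.

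The lists between ligand and ERK had smaller medians, and the difference between lists was not tested. Over all genes tested, 28.3% were higher and 19.2% lower in both Mut samples. Of 19 adaptors and RAS-ERK cascade genes tested, 10 were higher and 2 lower in both Mut samples, with a median log2 fold change of 0.14. Of 13 genes of receptor inhibition and turnover tested, such as the ubiquitin ligase Cbl, 5 were higher and 2 lower, with a median of 0.09. Of 8 ligand sheddases and partners, 5 were higher and 1 lower, with a median of 0.21. Rhbdf2, a partner of the sheddase ADAM17, and Timp3, an inhibitor of such proteases, were named after their values were seen, as both were among the 8 genes past the threshold with DESeq2. Rhbdf2 had an RPKM of 4.0 and 3.51 in the WT and 5.92 and 7.64 in the Mut samples, with a log2 fold change of 0.81 ± 0.18 (SE, edgeR adjusted p = 0.118). Timp3 had one of 57.2 and 86.2 in the WT and 109 and 142 in the Mut samples, with a log2 fold change of 0.77 ± 0.21 (SE, edgeR adjusted p = 0.167). No gene of these 3 lists had a log2 fold change of 1 or more in size with groups that did not overlap.

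**Figure D5:**
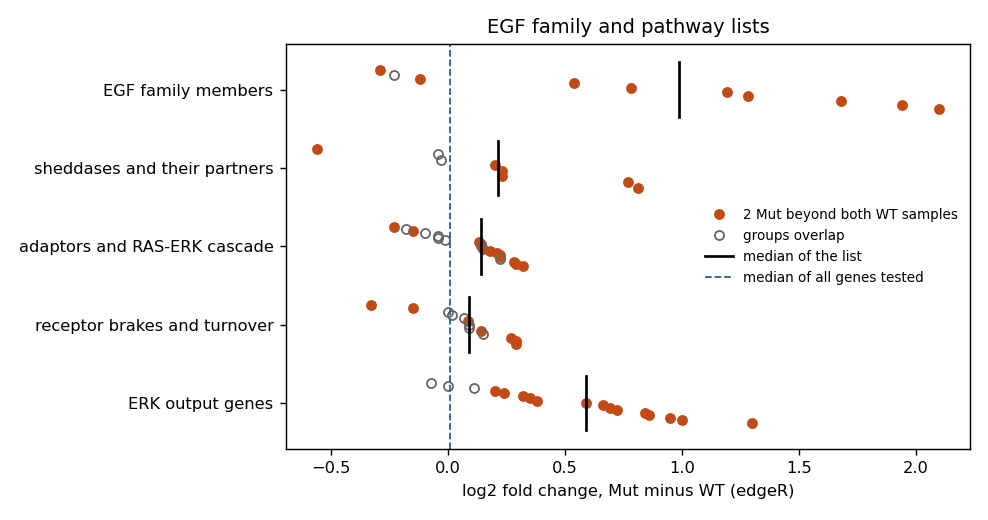
Points give the fitted log2 fold change, Mut minus WT, of each tested EGF family member and pathway gene. The short list of ligands and receptor, with Egf at -0.85, is not drawn. Lines give the median of each list (black) and of all genes tested (dashed). Filled points mark genes whose Mut samples both lie beyond both WT samples, as 14 of 17 ERK output genes do.

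Epithelial genes, which often go with Areg and Ereg expression, were checked beside the ligands. Of all genes tested, 28.3% were higher and 19.2% lower in both Mut samples. Of 6 epithelial markers, 3 (Krt8, Krt18 and Epcam) were higher in both Mut samples, and the summed RPKM was 4.29 to 10.8 in the WT and 21.5 to 27.5 in the Mut samples, most of it Krt18. Krt5 was at 0 in both Mut samples, Krt14 had an RPKM of at most 0.253 and the epithelial cadherin gene Cdh1 one of at most 0.201. Of 6 macrophage markers, a further source of Hbegf and Areg, 1 was higher and 2 were lower in both Mut samples, the summed RPKM was 17.4 to 18.6 in the WT and 9.75 to 14.6 in the Mut samples, and Adgre1 was listed in no sample. The part of epithelial cells or macrophages in the ligand levels was not tested.

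The genes nearest to 3 of the ligands were sought among 11737 genes whose RPKM reached 1 in 2 or more of the samples, by the Euclidean distance between deviations of log2(RPKM + 1) from the gene mean over the 4 samples. Among the 3 nearest to Ereg were Tm4sf1 and Cd24a, at distances of 0.206 and 0.219. Nearest to Hbegf were Slc6a17, the p53 target Ccng1 and the phospholipase gene Pla2g4a, at 0.0588, 0.0843 and 0.0947. Nearest to Areg were Lepr, 2010111I01Rik and Ahrr, at 0.0807, 0.212 and 0.230. With log2(RPKM + 0.1), 1 of the 3 genes was shared for Hbegf and 0 for Ereg and Areg, so the names rest on the pseudocount and describe the 4 samples only.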

How the data were processed

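RNA from 4 cultures (2 WT and 2 Mut) was sequenced by a service. As deposited, each sample has a raw read count per gene, an RPKM (checked to be that count over the gene length and the reads on genes) and the percent of the gene that reads covered. Unlisted genes were set to 0 reads. Per the labels, mm9 and SAMtools were used. The aligner, counting tool and annotation are not given in the sources used here.

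Counts were tested with edgeR 4.0.16 under R 4.3.3 (glmQLFit and glmQLFTest, TMM factors of 0.966 to 1.03, robust), keeping genes that reached 10 reads in 2 or more samples. Adjusted p values are Benjamini-Hochberg values over all genes kept, and each SE is the size of the log2 fold change over the square root of F. The 11 alternatives were DESeq2 1.42.0, RLE factors, no filter, 10 reads in every sample, limma 3.58.1 with a pseudocount of 1 or of 0.1 on the RPKM before log2, a block for the replicate number, and the omission of each sample. The edgeR, DESeq2 and limma code was tested on simulated data. The spread between simulated replicates was set and not fitted to these samples, so this tests the code and not its power here. Replicates differed beyond sampling noise, with a chi-square per degree of freedom of 48.6 (WT) and 23.7 (Mut).

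The members and lists were chosen with earlier results of these data known. Genes named were the 10 members, the other ERBB ligands and receptor, Senp6, the marker genes, the 3 nearest genes of Areg, Ereg and Hbegf, and pathway genes past an adjusted p of 0.05 or without overlap and with a log2 fold change of at least 1 in size. A few genes of these lists are not reported here.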

Additional observations from a re-analysis of the deposited data

How the results depend on the processing

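How many genes passed the adjusted threshold of 0.05 depended on the processing, and the cause was not tested. DESeq2 gave 434 higher and 263 lower of 14123 genes, among them 2 members and 8 pathway genes, all higher. Without a filter on low counts, edgeR gave 225 and 61 of the 18298 genes with a read, with 0 members and 3 pathway genes, all higher. The replicate numbers share no animal or batch in the labels, and the gap between replicate 1 and replicate 2 was nearly unrelated in the WT and Mut groups (correlation across genes -0.0371). A block for the replicate number gave 84 higher and 33 lower genes, with 0 members and 1 pathway gene. Leaving out 1 sample gave 68 to 1296 higher and 37 to 1444 lower genes, 0 to 4 members and 0 to 16 pathway genes, with a lone sample assumed to vary like the other group. Of 109 values of the members' log2 fold changes under the alternatives, 97 kept their direction and side of the threshold, 10 passed it with the same direction, and 2 changed sign. Both were values of Tgfa, at 0.023 without WT replicate 1 and 0.089 without Mut replicate 1, against -0.63 without Mut replicate 2. Against either WT sample alone, a choice made after seeing the data, both Mut samples were above it for 7 of the 10 members. Over all genes tested this held for 39.4% against WT replicate 2 and 51.5% against WT replicate 1. The 7 members were those above both WT samples, so their count could not fall and adds no support. Depth limits Areg, Btc and Erbb3, with 6 to 12, 10 to 11 and 11 to 47 reads in the WT samples, and Areg had no value where 10 reads were asked of every sample.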

Other observations

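The share of each gene's length that reads covered, in percent, was not used in the comparisons. For Nrg1 it lay under the median of genes of like read density (within 1.2 times) and like length (within 1.5 times). Reads covered 86.2% and 76.1% of Nrg1 in the WT and 84.4% and 83.3% in the Mut samples, where the median of 390 to 509 like genes was 92.5% to 95.9%. Between 6.41% and 22.6% of the like genes were covered less than Nrg1. For Ereg this share lay between 22.6% in Mut replicate 2 and 48.1% in WT replicate 1. The coverage of Ereg was 58.4% and 82.8% in the WT and 88.5% and 88.2% in the Mut samples, so it did not differ between the Mut samples although the reads went from 541 to 804. Erbb3, with fewer reads, was covered more than 78.4% to 90.1% of its like genes.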
